A study of Mus musculus with 16 samples.

Results

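The genes described here are 6 interferon-induced antiviral effectors: *Mx1* and *Mx2*, *Rsad2* (viperin), *Cmpk2*, *Isg20* and *Bst2* (tetherin). They were chosen by name, as the rows of the count matrices whose gene symbol is 1 of these, among 32285 listed genes. 4 of the 6 had a row (*Rsad2*, *Cmpk2*, *Isg20* and *Bst2*). *Mx1* and *Mx2* matched no row and were not analysed here. Unique molecular identifiers (UMIs, 1 per captured transcript) were summed per library, over all nuclei kept and over each class of nuclei, and are given as counts or as counts per 1000000 UMIs of that class in that library (CPM).

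The libraries were single-nucleus RNA-seq of frozen hippocampus from 16 male mice, 1 animal each. 8 animals were C57BL/6 wild type (WT), aged 2 months and 23 days, and 8 were *Ifnar1*-/- (KO), aged 3 months and 3 days, so that genotype cannot be told apart from age or cohort. *Ifnar1* encodes a chain of the type I interferon receptor. In each genotype, 4 animals received vehicle and 4 received DMXAA, a small-molecule agonist of mouse STING, by repeated intraperitoneal injection. The comparisons address whether activating STING changes these effectors, in which cells, and whether a change occurs without the receptor.

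Type I interferon binds a receptor of 2 chains, IFNAR1 and IFNAR2, whose kinases activate the transcription factor complex ISGF3. This complex binds interferon-stimulated response elements (ISREs) at the promoters of interferon-stimulated genes. The products of the genes described here act late, against the virus itself. Tetherin is a membrane protein that holds budding enveloped virions at the cell surface. Viperin is a radical SAM enzyme that makes the chain terminator ddhCTP from CTP, and *Cmpk2*, its neighbour in the genome, encodes a mitochondrial nucleotide kinase. *Isg20* encodes an exonuclease that degrades single-stranded RNA, and the Mx proteins are dynamin-like GTPases that block viral nucleocapsids. Mx1 is disrupted in many inbred mouse strains.

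In all, 108878 nuclei were kept, 5163 to 9237 per library, with 32581693 to 51535609 UMIs per library. Classes were rebuilt from marker genes, so a class name here means nuclei like that cell type. They held 43648 excitatory neurons (EN), 5729 inhibitory neurons (IN), 18127 oligodendrocytes, 14192 astrocytes, 4790 microglia, 3443 oligodendrocyte precursors (OPC), 2650 fibroblasts and 1308 choroid plexus cells, with 12930 nuclei left unnamed. In the microglia class, all 9 microglial markers had counts, and their summed level was 11134 to 11938 CPM in WT vehicle libraries and 6948 to 11837 CPM in WT DMXAA libraries, the lowest of which fell below all WT vehicle libraries. *Ifnar1* itself was at 13.5 to 19.3 CPM in WT and 10.7 to 12.4 CPM in KO libraries over all nuclei, lower in every KO library. With vehicle, 40.4% of genes were lower in every KO library than in every WT library. Which part of *Ifnar1* is deleted was not given in the sources used here, so it is unknown whether its remaining UMIs lie outside that part. Any pair of libraries shared at most 0.445% of barcodes.

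The library labelled WT DMXAA replicate 3 stood apart from its group. Over all genes, Pearson's r of log2 CPM between whole libraries was 0.974 to 0.979 with the other 3 WT DMXAA libraries, which were at 0.997 to 0.998 among themselves, 0.981 to 0.984 with WT vehicle libraries and 0.991 to 0.996 with the 8 KO libraries, so that it lay nearest to KO. Its *Ifnar1*, at 13.5 CPM, was between the other WT (16.9 to 19.3 CPM) and the KO libraries, and it held the most nuclei and UMIs. Why it stood apart was not tested. Results below include it, and those on called members and pathway genes are also given without it.

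On GRCm38, *Bst2* (ENSMUSG00000046718) lies at chr8:71534255-71537456 on the minus strand and *Isg20* (ENSMUSG00000039236) at chr7:78913424-78920396 on the plus strand. *Rsad2* (ENSMUSG00000020641), at chr12:26442746-26456452 on the minus strand, and *Cmpk2* (ENSMUSG00000020638), at chr12:26469204-26479837 on the plus strand, are divergent neighbours whose starts are 12752 bases apart. *Mx1* (chr16:97447035-97462907, minus strand) and *Mx2* (chr16:97535308-97560900, plus strand) are marked transcribed pseudogenes by RefSeq. The 250 bases upstream of the start sites of *Bst2*, *Rsad2* and *Cmpk2* are shown because the first 2 genes were called higher after DMXAA and the third was not. The windows shown were thus chosen by outcome, and whether motif matches go with the calls was not tested. They come from RefSeq promoters on GRCm38.p6, which matched 4 of the 6 genes in 6 windows, and are written from 5′ to 3′ on the strand of the gene. Capitals mark matches to the ISRE core, searched on both strands as GAAA, any 2 bases and GAAA again, which reads TTTC, any 2 bases and TTTC on the other strand.
Bst2, chr8:71537473-71537722, minus strand: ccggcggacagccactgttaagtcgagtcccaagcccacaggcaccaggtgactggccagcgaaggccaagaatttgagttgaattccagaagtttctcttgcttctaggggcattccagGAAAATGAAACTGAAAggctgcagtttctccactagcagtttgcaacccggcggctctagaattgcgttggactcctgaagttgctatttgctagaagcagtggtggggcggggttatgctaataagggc
Rsad2, chr12:26456453-26456702, minus strand: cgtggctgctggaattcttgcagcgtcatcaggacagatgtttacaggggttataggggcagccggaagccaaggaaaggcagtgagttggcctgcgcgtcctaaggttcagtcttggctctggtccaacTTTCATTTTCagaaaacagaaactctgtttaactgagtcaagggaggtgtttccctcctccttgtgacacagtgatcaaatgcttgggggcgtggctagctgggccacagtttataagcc
Cmpk2, chr12:26468965-26469214, plus strand: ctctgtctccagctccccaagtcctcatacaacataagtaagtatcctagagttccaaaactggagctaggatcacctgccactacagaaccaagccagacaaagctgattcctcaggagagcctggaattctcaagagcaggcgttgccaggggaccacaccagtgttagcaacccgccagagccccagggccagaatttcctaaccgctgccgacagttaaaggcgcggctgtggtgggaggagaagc

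The *Bst2* window held 2 overlapping matches, GAAAATGAAA at -130 to -121 and GAAACTGAAA at -124 to -115 from the start site. The *Rsad2* window held TTTCATTTTC at -120 to -111. No match was in the *Cmpk2* window or the 3 *Isg20* windows, which says only that these letters are absent there. Of 32851 promoters of that length, 978 (2.98%) held a match. The gamma-activated site, a motif of interferon-gamma responses, searched as TTCNNNGAA, which reads the same on both strands, matched in *Bst2* (TTCCAGGAA, -136 to -128, overlapping the first ISRE match by letters) and in 1 *Isg20* window (TTCTTGGAA, -73 to -65), and in 2306 of all promoters (7.02%).

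*Bst2* was the member that rose in the most classes after DMXAA in WT mice. Over all nuclei, WT vehicle libraries 1 to 4 held 26, 42, 34 and 31 *Bst2* UMIs (0.650, 1.07, 0.929 and 0.768 CPM). WT DMXAA libraries 1 to 4 held 450, 213, 97 and 324 UMIs (12.2, 5.64, 1.88 and 9.75 CPM). Every treated library was above every vehicle library, with replicate 3 the lowest treated library and replicate 1 the highest. The log2 fold change of *Bst2* was 3.1 ± 0.42 (SE; edgeR quasi-likelihood test, adjusted p = 0.00128), and 3.39 without replicate 3 (adjusted p = 1.89e-05). *Rsad2* also passed and *Cmpk2* did not, so that 2 of the 3 tested members were called higher, beside 0.428% of all 20076 genes tested. Groups did not overlap, in the upward direction, for 1.03% of genes. In sums over all nuclei, a change in the number of nuclei of a class and a change of RNA per nucleus cannot be told apart.

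**Figure D1:**
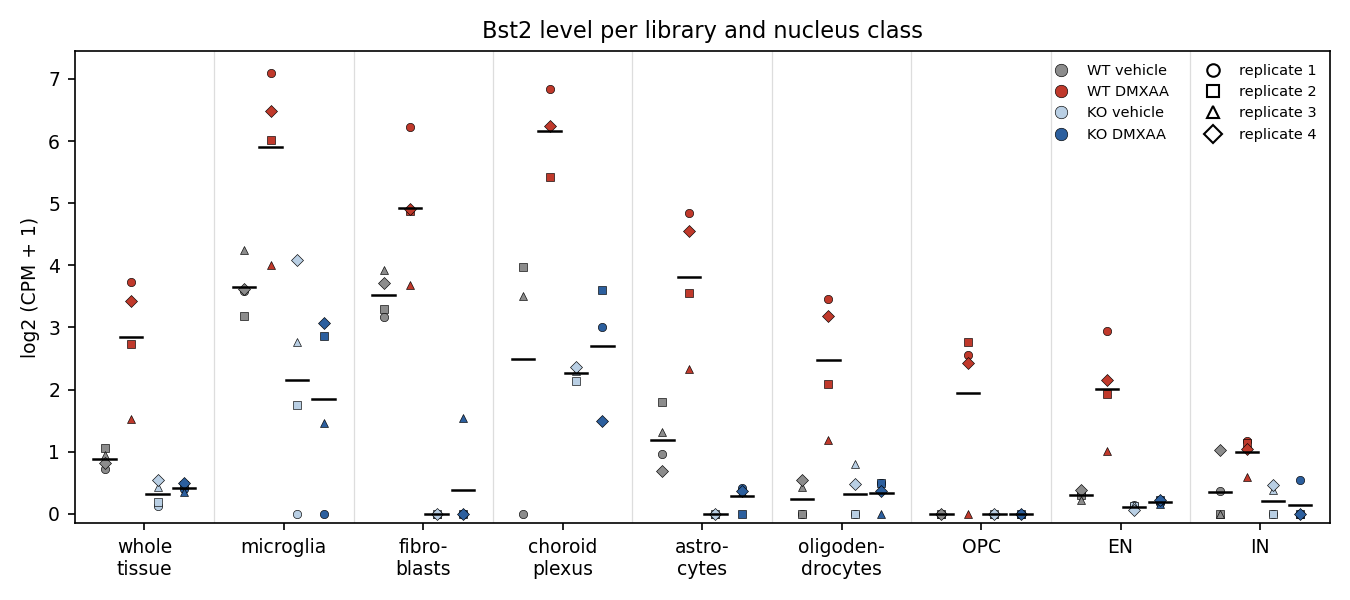
*Bst2* level in each library as log2 (CPM + 1), by class and by group. Each point is a library, its shape gives the replicate, and bars are means of the plotted values. WT DMXAA libraries reach 136 CPM in microglia and 73.5 CPM in fibroblasts, and KO libraries with DMXAA do not exceed 7.45 CPM in microglia, with KO vehicle libraries at 0 to 15.9 CPM.

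Microglia, the resident macrophages of the brain, held *Bst2* in animals given vehicle. WT vehicle microglia had 7, 5, 11 and 8 UMIs (11.0, 8.08, 18.0 and 11.3 CPM), and WT DMXAA microglia 97, 41, 13 and 66 UMIs (136, 63.6, 15.1 and 88.0 CPM). Replicate 3 lay within the vehicle range, so the groups overlapped. *Bst2* rose by 2.63 ± 0.57 on the log2 scale (edgeR, adjusted p = 0.0210), and by 2.96 without replicate 3 (adjusted p = 6.04e-07). It was the only member tested in microglia, where 1.26% of genes were called higher. A microglial nucleus held a *Bst2* UMI in 30 of 1328 cases (2.26%) with vehicle and 194 of 1471 (13.2%) with DMXAA, at median depths of 1855.5 and 1937 UMIs. In treated libraries 1 to 4 the share was 22.8%, 11.5%, 3.27% and 15.8%. The call in microglia was lost with limma-trend (log2 change 2.21, adjusted p = 0.182) and without any of WT DMXAA replicate 1 or WT vehicle replicates 1, 2 and 4 (edgeR, adjusted p up to 0.0832). Markers of border macrophages in this class summed to 8.08 to 19.8 CPM with vehicle and 17.5 to 30.9 CPM with DMXAA over 7 genes, with *Cd163*, *Lyve1* and *Pf4* at 0 in both groups, and their part in the change was not tested.

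Astrocytes held little *Bst2* with vehicle, at 0.947, 2.48, 1.5 and 0.607 CPM, and 27.6, 10.7, 4.01 and 22.5 CPM with DMXAA. All 4 treated libraries lay above all vehicle libraries. *Bst2* rose by 3.62 ± 0.57 on the log2 scale (edgeR, adjusted p = 0.0113), or by 3.93 without replicate 3 (adjusted p = 1.72e-05). The call was lost without WT vehicle replicate 1, 3 or 4 (adjusted p up to 0.0761). It was the 1 of 3 tested members called, beside 0.225% of all genes called higher in astrocytes. The groups did not overlap upward for 0.733% of genes.

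In EN, the most numerous class, *Bst2* was at 0.261, 0.230, 0.171 and 0.30 CPM with vehicle and 6.67, 2.81, 1.01 and 3.44 CPM with DMXAA. No treated library reached down to a vehicle library. *Bst2* rose by 3.83 ± 0.42 on the log2 scale (edgeR, adjusted p = 0.000266), or by 4.10 without replicate 3 (adjusted p = 3.56e-06). It was 1 of 2 members tested, beside 0.131% of genes called higher and 0.820% whose libraries did not overlap upward. *Bst2* passed the filter on low counts here only through the WT DMXAA libraries, as in astrocytes, dentate granule neurons and choroid plexus cells. The number of members tested is therefore no support for a rise. The share of EN nuclei with a *Bst2* UMI went from 0.197% to 2.48%, at median depths of 8038 and 8056 UMIs.

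The change in EN was seen in several regions. In dentate granule neurons, the principal neurons of the dentate gyrus, *Bst2* had 3, 0, 1 and 5 UMIs with vehicle and 9.36, 3.23, 1.43 and 4.46 CPM with DMXAA, a rise of 4.12 ± 0.67 on the log2 scale (edgeR, adjusted p = 0.0122; 0.123% of genes called higher there and 0.726% without overlap upward). Without replicate 3 the rise was 4.40 (edgeR, adjusted p = 0.000115; 0.499% of genes called higher in that fit), and the call was lost without WT vehicle replicate 2 or 3 (adjusted p up to 0.0791). CA1 pyramidal neurons held 9.39, 3.65, 1.15 and 4.07 CPM with DMXAA against 0.171 to 0.636 CPM with vehicle. Neurons of cortex and subiculum held 3.57, 0.801, 0.543 and 1.92 CPM against 0 to 0.102 CPM. In CA1 and in cortex and subiculum *Bst2* did not pass the filter on low counts, and the groups did not overlap, as for 0.706% and 0.524% of genes there (exact permutation test, two-sided, p = 0.0286 in each, the smallest that 4 against 4 allows). In CA3 neurons the 4 treated libraries, at 4.13, 2.00, 0.196 and 2.14 CPM, overlapped the vehicle libraries at 0 to 0.864 CPM (exact permutation p = 0.114), and it was replicate 3 that lay among them.

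Choroid plexus cells, the epithelium that secretes cerebrospinal fluid, had enough nuclei in 12 of 16 libraries, WT DMXAA replicate 3 not among them. *Bst2* was at 0, 14.8 and 10.4 CPM in WT vehicle libraries 1 to 3 and at 113, 41.7 and 75.1 CPM in WT DMXAA libraries 1, 2 and 4. The groups did not overlap, which held upward for 7.33% of genes in this class, and *Bst2* rose by 2.70 ± 0.41 on the log2 scale (edgeR, adjusted p = 0.000842; 0.252% of genes called higher).

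Oligodendrocytes, OPC, IN and fibroblasts had too few *Bst2* counts to pass the filter, and edgeR called 0.0165%, 0.216%, 0% and 0% of the genes tested there higher in WT. Oligodendrocytes, the myelinating cells, held 0, 0, 1 and 1 UMIs with vehicle and 28, 10, 4 and 27 with DMXAA (10.0, 3.25, 1.27 and 8.05 CPM), without overlap (exact permutation p = 0.0286; 0.517% of genes). OPC held 4, 5, 0 and 4 UMIs with DMXAA and none in any of the other 12 libraries, which is at least 4.73-fold higher than the WT vehicle level when the 4 vehicle libraries are set at a floor of 3 counts together (exact permutation p = 0.143). Fibroblasts of the meninges and vessels held 7.99, 8.83, 14.3 and 12.1 CPM with vehicle and 73.5, 28.2, 11.9 and 29.0 CPM with DMXAA, where replicate 3 fell inside the vehicle range (exact permutation p = 0.0857). Without replicate 3, *Bst2* passed the filter and was called in fibroblasts (2.10 ± 0.45, edgeR adjusted p = 0.0439; 0.26% of genes called higher in that fit). That fit left out the lowest treated value of *Bst2*, so the call is no separate support for a rise. IN held 0.289, 0, 0 and 1.04 CPM with vehicle and 1.26, 1.21, 0.505 and 1.07 CPM with DMXAA, with overlap (exact permutation p = 0.0571).

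When the 8 WT libraries were fitted alone, without the spread of the KO libraries, the log2 changes of *Bst2* were 3.1 over all nuclei, 2.65 in microglia, 3.83 in EN and 4.13 in dentate granule neurons, and the calls were lost (edgeR, adjusted p = 0.0519, 0.0987, 0.0647 and 0.283). The call in choroid plexus cells held (2.68, edgeR adjusted p = 0.000535), and in astrocytes *Bst2* no longer passed the filter on low counts.

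Ordered by mean level with DMXAA in WT, over the 9 named classes that had enough nuclei in at least 3 WT DMXAA libraries, *Bst2* was at 76.7 ± 35.8 CPM (SD, n = 3) in choroid plexus cells, 75.7 ± 50.4 (n = 4) in microglia, 35.6 ± 26.5 in fibroblasts, 16.2 ± 10.8 in astrocytes, 5.65 ± 4.08 in oligodendrocytes, 3.77 ± 2.58 in OPC, 3.48 ± 2.36 in EN, 1.01 ± 0.347 in IN and 0.799 ± 1.6 in nuclei named Cajal-Retzius cells, which held a single *Bst2* UMI. Cajal-Retzius cells are early-born neurons. Of the 743 nuclei so named, 222 came from a cluster that met only 3 of the 8 markers, so the name is less sure for them. No neighbours in this order differed beyond their SDs, which hold the spread between animals. Within each of the 4 libraries, microglia were above fibroblasts, fibroblasts above astrocytes, astrocytes above oligodendrocytes and EN above IN. Microglia were also above EN in each, and above choroid plexus cells in the 3 libraries with both. The places of OPC and Cajal-Retzius cells varied between libraries. No test between classes was made. With vehicle, the order of the same classes began with microglia (12.1 ± 4.19 CPM), fibroblasts (10.8 ± 2.91) and choroid plexus cells (8.40 ± 7.59, n = 3). In UMIs, EN held 30.2% of all 1084 *Bst2* UMIs of WT DMXAA libraries, with 40.9% of nuclei and 64.3% of the UMIs of all genes, and microglia held 20.02% with 4.87% of nuclei and 1.86% of those UMIs. A *Bst2* UMI was found in 0.70% of 1714 IN nuclei, at a median depth of 7368.5 UMIs, and in 1 of 320 Cajal-Retzius nuclei (0.3125%), at a median depth of 4070 UMIs. No class was known to lack the gene, so a share owed to free RNA was not tested.

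**Figure D2:**
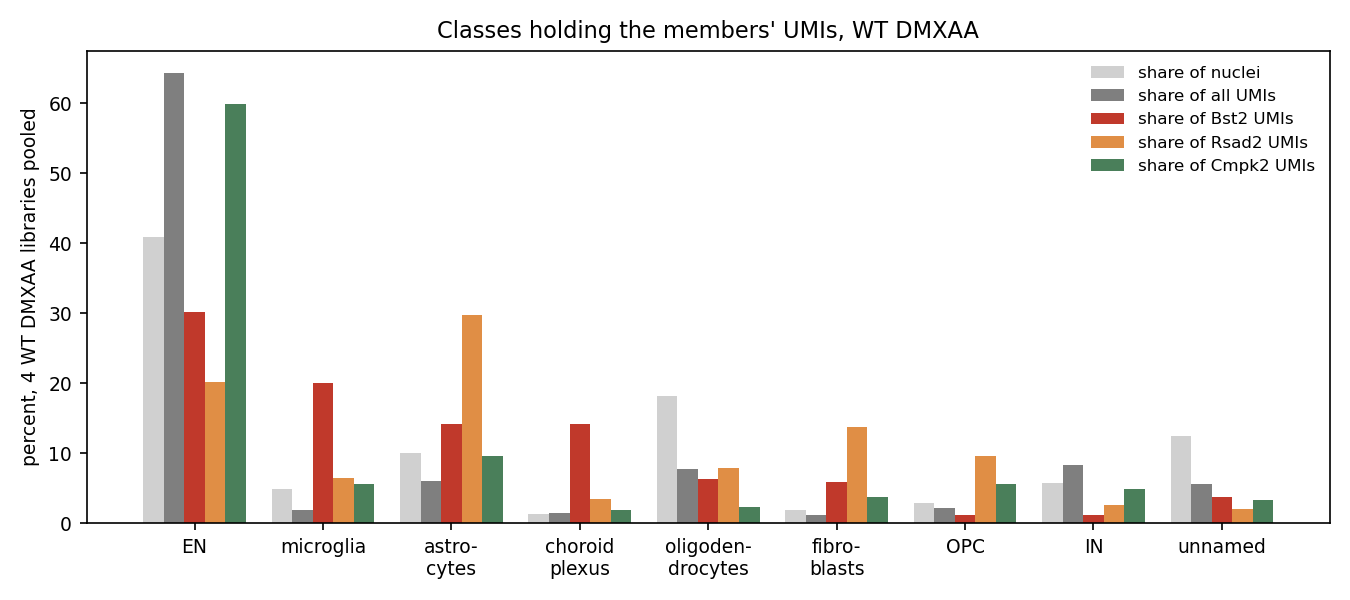
Share of each gene's UMIs (percent, 4 WT DMXAA libraries pooled) that fell in each class, beside the shares of nuclei (light grey) and of all UMIs (dark grey) in that class. EN held 64.3% of all UMIs, 60.0% of *Cmpk2* UMIs and 30.2% of *Bst2* UMIs with DMXAA, and astrocytes held 29.7% of *Rsad2* UMIs.

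*Rsad2* also rose over all nuclei in WT mice, with lower counts and more spread. Vehicle libraries held 20, 27, 10 and 8 UMIs (0.50, 0.69, 0.273 and 0.198 CPM), and DMXAA libraries 173, 66, 62 and 42 UMIs (4.70, 1.75, 1.2 and 1.26 CPM). No library overlapped between the groups, as upward for 1.03% of genes, and replicate 1 stood well above the other 3 treated libraries. The rise was 2.45 ± 0.51 on the log2 scale (edgeR, adjusted p = 0.0468). Leaving out 1 library lost the call for *Rsad2* in 12 of 16 fits, with adjusted p up to 0.219 and log2 changes of 1.85 to 2.80. Without WT DMXAA replicate 3 the call held (2.59, adjusted p = 0.0178).

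Astrocytes held 31 of the 65 *Rsad2* UMIs of WT vehicle animals (47.7%), more than any other class, with 15 of these 31 in a single nucleus of replicate 1. Vehicle astrocytes held 17, 9, 3 and 2 UMIs (8.05, 3.72, 1.13 and 0.607 CPM) and DMXAA astrocytes were at 25.1, 9.33, 4.81 and 7.04 CPM. The groups overlapped and the log2 change of 1.93 ± 0.58 did not pass (edgeR, adjusted p = 0.40). Of 16 fits leaving out a library, it passed in 1, without WT DMXAA replicate 3 (2.17, adjusted p = 0.0435). In the others the edgeR adjusted p went up to 0.831. A single nucleus decided the highest vehicle value. It held 15 of the 17 *Rsad2* UMIs of astrocytes in WT vehicle replicate 1, and 113 UMIs over 34 genes of the interferon pathway lists, where the median astrocyte nucleus of that library held 2. Without nuclei of 10 or more *Rsad2* UMIs, a limit chosen after seeing the data, vehicle astrocytes were at 0.949, 3.72, 1.13 and 0.607 CPM. In astrocytes this removed a vehicle nucleus for its own *Rsad2* value and no treated one, so that no test is drawn from it.

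In EN, *Rsad2* was nearly absent from vehicle libraries, with 0, 0, 1 and 0 UMIs, and had 39, 11, 14 and 5 UMIs with DMXAA (exact permutation p = 0.0286; 0.820% of genes did not overlap upward in EN). The pooled ratio in EN was 69.4 with a counting interval of 12 to 2779. It stands over 1 vehicle UMI, and replicate 1 held 39 of the 69 treated UMIs. In dentate granule neurons, which held 43 of these 69 treated UMIs, no vehicle library had a UMI, and the level of *Rsad2* with DMXAA was at least 13.5-fold higher over a floor of 3 counts in the group. *Rsad2* did not pass the filter in either. In OPC, vehicle libraries held 0, 0, 2 and 1 UMIs and DMXAA libraries 22, 5, 3 and 3 (26.9, 5.79, 3.27 and 3.31 CPM), without overlap (exact permutation p = 0.0286; 0.926% of genes), and replicate 1 was again far above the rest.

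Microglia held few *Rsad2* UMIs, 0, 1, 0 and 0 with vehicle and 14, 1, 4 and 3 with DMXAA, with overlap (exact permutation p = 0.0571). In fibroblasts *Rsad2* was at 6.00, 3.53, 0 and 6.04 CPM with vehicle and 37.9, 35.7, 16.9 and 3.22 CPM with DMXAA, with overlap (exact permutation p = 0.114). In treated replicate 2, a single fibroblast nucleus held 15 of that library's fibroblast UMIs of *Rsad2* (78.9%), and without it the value was 7.66 CPM. In treated replicate 3, another held 7 of the 10 fibroblast UMIs (70%), with 99 UMIs of the pathway lists, so that 2 of the 4 treated values rested mostly on single nuclei. Oligodendrocytes held 0, 4, 0 and 0 UMIs with vehicle and 19, 3, 4 and 1 with DMXAA, with overlap (exact permutation p = 0.20).

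**Figure D3:**
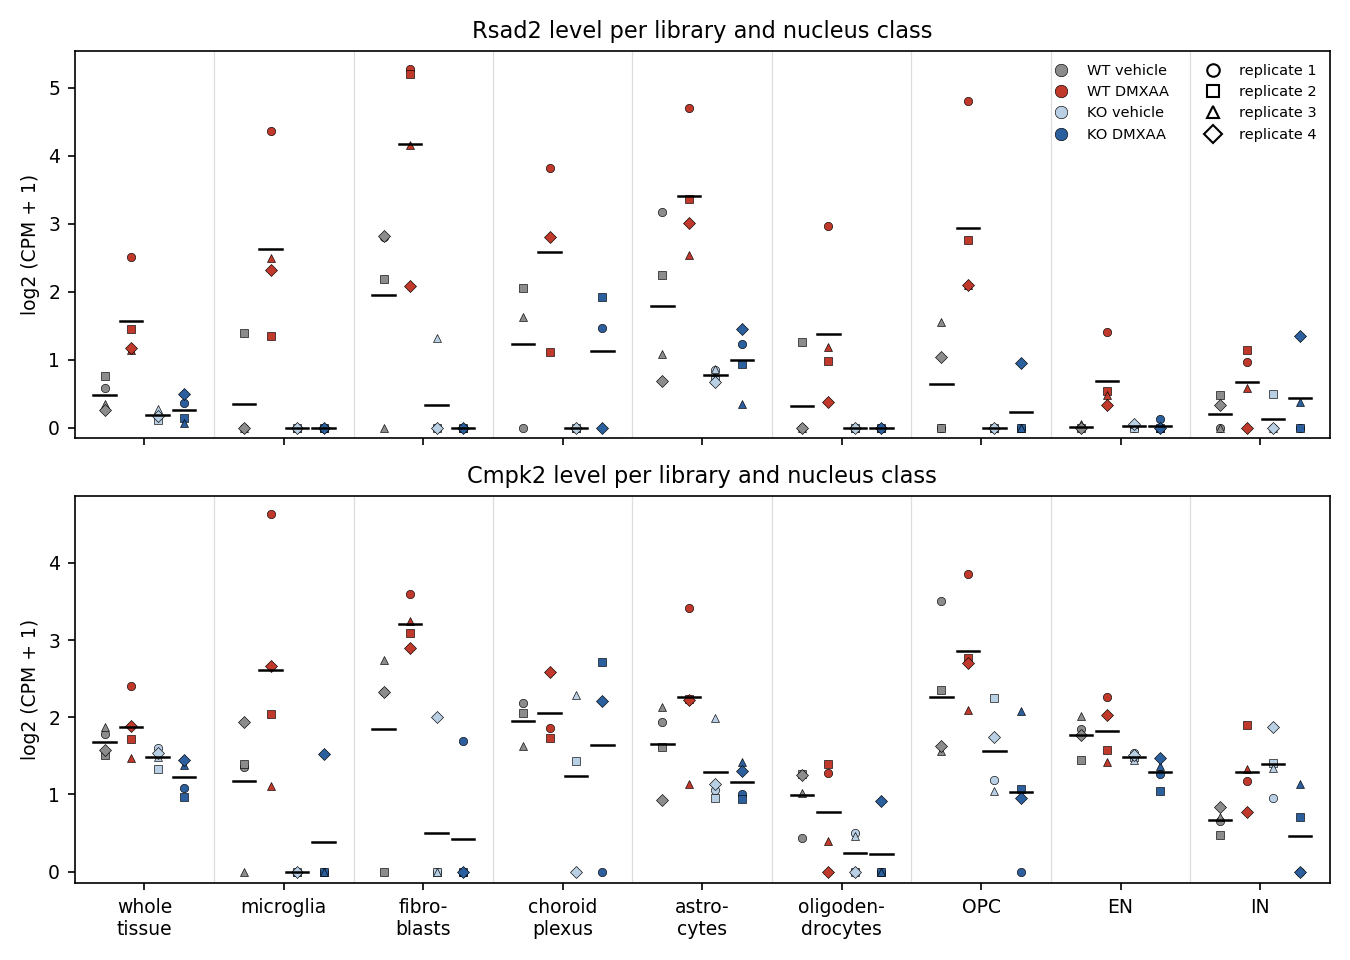
*Rsad2* (top) and *Cmpk2* (bottom) levels in each library as log2 (CPM + 1), by class and by group, with 1 point per library, its shape giving the replicate, and bars at the means of the plotted values. *Rsad2* over all nuclei spans 1.2 to 4.70 CPM in WT DMXAA libraries and 0.198 to 0.69 CPM in WT vehicle libraries, whereas the *Cmpk2* ranges overlap.

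*Cmpk2* was tested over all nuclei and in astrocytes, EN, dentate granule neurons, CA1, and cortex and subiculum, and was called in none of them in WT. In the other classes it did not pass the filter. The difference between it and *Rsad2* was not tested. Over all nuclei WT vehicle libraries held 98, 72, 97 and 80 UMIs (2.45, 1.84, 2.65 and 1.98 CPM) and WT DMXAA libraries 159, 87, 91 and 90 UMIs (4.32, 2.30, 1.77 and 2.71 CPM). The groups overlapped, and *Cmpk2* changed by 0.36 ± 0.22 on the log2 scale (edgeR, adjusted p = 0.999). EN held 250 of 347 *Cmpk2* UMIs with vehicle (72.0%) and 256 of 427 with DMXAA (60.0%), near the EN share of all UMIs (66.0% and 64.3%). Per UMI with vehicle, EN were at a mean of 2.44 ± 0.548 CPM (SD, n = 4), with OPC at 4.62 ± 3.93, fibroblasts at 3.43 ± 2.42 and choroid plexus cells at 2.93 ± 0.753 (n = 3), on 17, 6 and 5 UMIs. In EN the levels of *Cmpk2* were 2.61, 1.72, 3.03 and 2.40 CPM with vehicle and 3.8, 1.99, 1.68 and 3.07 CPM with DMXAA (log2 change 0.17 ± 0.22, edgeR adjusted p = 0.999). Among EN regions with vehicle, cortex and subiculum was highest, at 3.40 ± 0.0649 CPM (SD, n = 4), above dentate granule neurons at 2.10 ± 0.601 and CA1 at 1.79 ± 0.465. In CA3 neurons the treated libraries, at 3.62, 2.40, 2.35 and 3.21 CPM on 28 UMIs, lay above the vehicle ones, at 0.734 to 1.73 CPM on 7 UMIs (exact permutation p = 0.0286; 2.47% of genes did not overlap upward there). IN were at 1.26, 2.73, 1.51 and 0.711 CPM with DMXAA and 0.394 to 0.78 CPM with vehicle, on 21 and 8 UMIs, with overlap (exact permutation p = 0.0571).

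Outside neurons, counts of *Cmpk2* were small. Microglia held 1, 1, 0 and 2 UMIs with vehicle and 17, 2, 1 and 4 with DMXAA, so most treated UMIs came from replicate 1 (exact permutation p = 0.171). Fibroblasts were at 4.0, 0, 5.70 and 4.03 CPM with vehicle and 11.1, 7.52, 8.47 and 6.45 CPM with DMXAA, without overlap, on 6 and 16 UMIs (exact permutation p = 0.0286; 0.693% of genes did not overlap upward in fibroblasts). In treated replicate 2, a single fibroblast nucleus held all 4 *Cmpk2* UMIs, the same nucleus that held 15 *Rsad2* UMIs. The lack of overlap for *Cmpk2* thus rested on that nucleus. In treated replicate 3, the nucleus with 7 *Rsad2* UMIs held 2 of *Cmpk2*. In astrocytes *Cmpk2* changed by 1.06 ± 0.51 on the log2 scale and did not pass (edgeR, adjusted p = 0.792). Nuclei with UMIs of both *Rsad2* and *Cmpk2* were rare. Of 274 nuclei with *Rsad2* in WT DMXAA libraries, 11 (4.01%) also held *Cmpk2*, against 1.34% of all nuclei, and 35 (12.8%) held *Bst2*, against 3.15% of all. In WT vehicle libraries these were 1 of 42 (2.38%, against 1.12%) and 3 (7.14%, against 0.424%). In KO vehicle libraries they were 3 of 21 (14.3%, against 1.04%) and 1 (4.76%, against 0.161%), and in KO DMXAA libraries 0 of 24 and 1 (4.17%, against 0.19%). The shares pool libraries, classes and depths, and a change with treatment was not tested.

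*Isg20* passed the filter in no class. Over all nuclei it had 5, 6, 6 and 9 UMIs in WT vehicle libraries and 11, 9, 1 and 10 in WT DMXAA libraries, with overlap (exact permutation p = 0.486). In microglia all vehicle and all KO libraries were at 0, and WT DMXAA libraries 1 to 4 held 8, 4, 0 and 0 UMIs. That is at least 3.47-fold higher than a floor of 3 counts in the WT vehicle group, and it rested on replicates 1 and 2 (exact permutation p = 0.429).

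Without *Ifnar1*, no member was called after DMXAA where it was tested, and over all nuclei neither was any gene (0% of 20076; edgeR). In oligodendrocytes, OPC, IN, fibroblasts and CA3 neurons no member passed the filter. Only *Bst2* passed it in microglia and choroid plexus cells, and *Rsad2* passed it only over all nuclei and in astrocytes. At an unadjusted p under 0.05, 1 of 3 tested members passed over all nuclei, *Cmpk2* with a log2 change of -0.49 ± 0.23 (adjusted p = 0.774), beside 1156 of the 20076 genes. DESeq2 called no member either. *Bst2* over all nuclei was at 3, 5, 15 and 18 UMIs in KO vehicle libraries (0.0921, 0.145, 0.346 and 0.459 CPM) and 11, 14, 11 and 14 with DMXAA (0.318, 0.372, 0.272 and 0.404 CPM). The treated libraries lay inside the vehicle range, and the log2 change was 0.28 ± 0.54 (edgeR, adjusted p = 0.894). KO microglia held 0, 1, 3 and 7 *Bst2* UMIs with vehicle and 0, 3, 1 and 4 with DMXAA, and KO astrocytes held none with vehicle and 1, 0, 1 and 1 with DMXAA. In EN the 4 treated KO libraries (0.119 to 0.163 CPM) were above the 4 vehicle ones (0.0410 to 0.105 CPM), on 13 and 8 UMIs, beside 5.25% of genes that lay apart in this way (exact permutation p = 0.0286; log2 change 0.64 ± 0.72, edgeR adjusted p = 0.815). *Rsad2* in KO was at 0.0872 to 0.208 CPM with vehicle and 0.0495 to 0.404 CPM with DMXAA, and at 0 in all 8 microglia sums.

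**Figure D4:**
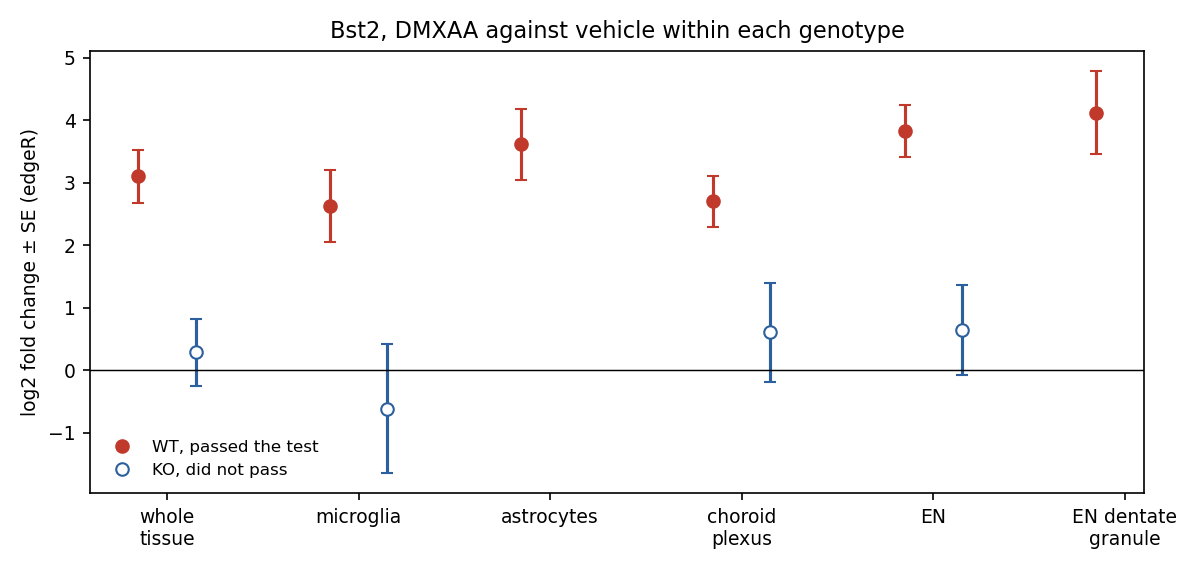
log2 fold change of *Bst2* with DMXAA against vehicle in WT and KO (points, bars are SE), by class in which it passed the filter, from edgeR. KO points are left out where the KO vehicle libraries held at most 3 UMIs together. The WT changes lie between 2.63 in microglia and 4.12 in dentate granule neurons, and the KO changes shown between -0.62 and 0.64.

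The difference between the genotypes in the response, tested as an interaction, did not pass after correction for any tested member (edgeR; 0.0747% of genes called over all nuclei, where all 3 tested members and 1365 of the 20076 genes had an unadjusted p under 0.05). It was 2.82 ± 0.68 on the log2 scale for *Bst2* over all nuclei (edgeR, adjusted p = 0.226), 3.24 ± 1.21 in microglia (adjusted p = 0.511) and 3.19 ± 0.93 in EN (adjusted p = 0.679). DESeq2 called the interaction for *Bst2* over all nuclei (2.81, adjusted p = 0.00664). So did edgeR without WT DMXAA replicate 3 (3.11, adjusted p = 0.0222), the treated library with the least *Bst2*. That was the only 1 of 16 fits leaving out a library that called it (edgeR, adjusted p up to 0.520). Without replicate 3 the interaction was 3.58 in microglia (edgeR, adjusted p = 0.0564) and 3.46 in EN (adjusted p = 0.208).

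With vehicle alone, *Bst2* was lower in KO than in WT. Over all nuclei the highest KO library (0.459 CPM) was below the lowest WT library (0.650 CPM), a log2 difference of -1.34 ± 0.49 (edgeR, adjusted p = 0.0339). The call was lost without WT vehicle replicate 2, 3 or 4 or KO vehicle replicate 1 or 2 (adjusted p up to 0.0932). It held without WT DMXAA replicate 3, which enters through the shared estimate of the spread (-1.33, adjusted p = 0.00616). It stood beside 26.4% of all genes called lower and 40.4% whose libraries did not overlap downward, and genotype cannot be told apart from age and cohort here. In astrocytes, WT vehicle libraries held 14 *Bst2* UMIs and KO vehicle libraries none, at least 6.21-fold lower over a floor of 3 counts in the group (edgeR, adjusted p = 0.0223, with 0.0563 without WT vehicle replicate 2 and 0.00235 without WT DMXAA replicate 3; 16.7% of genes called lower and 22.2% without overlap downward). In fibroblasts it was 20 UMIs against 0, at least 9.26-fold lower (exact permutation p = 0.0286; 10.9% of genes did not overlap downward).

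The other genes of the pathway were taken from 3 lists, of sensors and receptor chains, of ISGF3 and its feedback, and of other antiviral effectors. These lists were chosen with earlier results of these data known, so the counts called are a description and no independent support. Over all nuclei in WT, 0 of 8 tested sensors and receptor genes, 5 of 9 genes of ISGF3 and feedback and 42 of 50 other effectors were called higher, and none lower (edgeR; median log2 change 0.04, 1.55 and 1.74, against 0.01 over all genes). In microglia the counts were 0 of 7, 4 of 5 and 33 of 37, in astrocytes 0 of 7, 4 of 5 and 18 of 29, in OPC 0 of 6, 2 of 3 and 11 of 18, in oligodendrocytes 0 of 6, 0 of 3 and 1 of 14, and in EN 0 of 8, 4 of 9 and 14 of 31. In fibroblasts none of 40 and in IN none of 19 tested genes was called by edgeR, which called no gene of either class, while 536 of 8896 and 351 of 12952 genes had an unadjusted p under 0.05. No gene of these classes was called by limma-trend or DESeq2 either. Without WT DMXAA replicate 3, edgeR called more of these genes in WT, with no sensor or receptor gene in any class. The calls were then 7 of 9 genes of ISGF3 and feedback and 46 of 50 other effectors over all nuclei, 6 of 6 and 39 of 41 in microglia, 6 of 7 and 27 of 32 in astrocytes, 4 of 4 and 17 of 21 in OPC, and 6 of 9 and 21 of 33 in EN. In oligodendrocytes they went to 3 of 3 and 10 of 16, in fibroblasts to 2 of 6 and 13 of 31, and in IN they stayed at 0 of 3 and 0 of 11. The share of all genes called higher also rose in that fit, to 0.865% over all nuclei, 3.61% in microglia, 0.825% in astrocytes, 0.721% in OPC, 0.264% in EN, 1.17% in oligodendrocytes and 0.26% in fibroblasts, and was 0% in IN. For these lists no other library was left out, and why more genes were called was not tested. In KO none was called in any list or class. *Usp18*, a protease that removes ISG15 and dampens receptor signalling, had 1, 9, 4 and 2 UMIs in WT microglia with vehicle and 185, 63, 45 and 48 with DMXAA, a rise of 4.20 ± 0.62 on the log2 scale (edgeR, adjusted p = 0.00219), or of 4.43 without replicate 3 (adjusted p = 2.04e-07). *Oas2*, which makes the RNase L activator 2-5A, had none with vehicle and 155, 45, 48 and 75 UMIs with DMXAA. *Ifi207*, of the PYHIN family, had none with vehicle and 207, 84, 33 and 69 with DMXAA.

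The treated animal with the most *Bst2* also held the most of the other effectors, and the one with the least held the least. The summed level of the 52 other antiviral effectors in WT DMXAA replicates 1 to 4 was 810, 427, 244 and 436 CPM over all nuclei, against 151 to 170 CPM in WT vehicle libraries. It was 11983, 6985, 3652 and 6323 CPM in microglia and 369, 198, 101 and 154 CPM in EN. Replicate 1 was the highest and replicate 3, the library that stood apart over all genes, the lowest, as for *Bst2*, and why the animals differed was not tested.

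**Figure D5:**
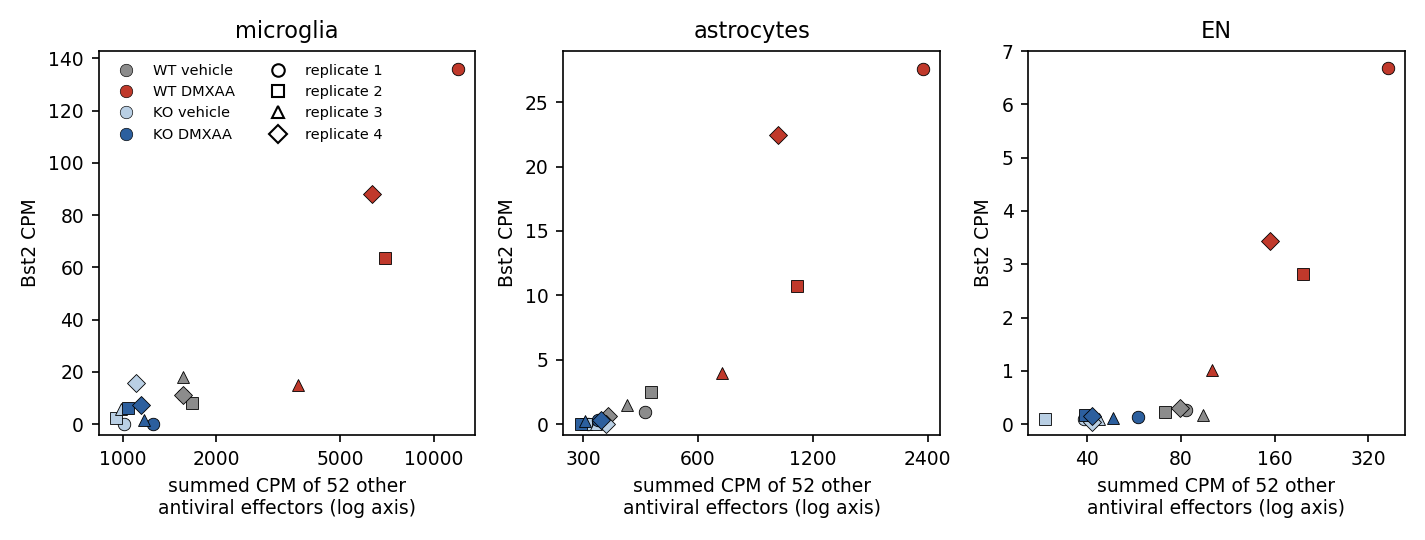
*Bst2* CPM against the summed CPM of the 52 other antiviral effectors in microglia, astrocytes and EN, with 1 point per library, a log horizontal axis and a linear vertical axis. In each class the WT DMXAA point of replicate 3 lies closest to the vehicle points, at 3652 CPM of effectors in microglia.

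Over 112 sums of 7 classes and 16 libraries, the genes whose log2 CPM was most like that of each member among 16635 genes were *Usp18* (Pearson r = 0.81), *Ifit3b* (0.78) and *Irf7* (0.78) for *Rsad2*, *Lgals3bp* (0.87), *Irf9* (0.85) and *H2-T23* (0.85) for *Bst2*, *Ifit3b* (0.63), *Rsad2* (0.62) and *Ifi44* (0.62) for *Cmpk2*, and *Ifi207* (0.57), *Zbp1* (0.54) and *Ifi213* (0.53) for *Isg20*. The sums share libraries, classes and depth, so r is a description.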

How the data were processed

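The authors sequenced sorted nuclei with a 10x 3′ kit. The deposited files hold UMI counts per gene and barcode, not normalized. The submitters' processing notes list Cell Ranger 3.1.0, Seurat 3.0 and mm10, the study's methods state that pre-mRNA was counted, and the file headers name Cell Ranger 6.1.2. All groups were taken from the labels. The genes and lists were chosen with earlier results of these data known.

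Of 155084 barcodes, nuclei with 200 to 4000 genes and at most 5% mitochondrial UMIs were kept, the limits of the study, and simulated doublets set the removal of 0.8% per 1000 barcodes. Leiden clusters (resolution 0.5, 2000 variable genes, 30 components, 20 neighbours; Python 3.11.15 with SciPy 1.17.1, NumPy 2.4.6, igraph 0.11.9 and leidenalg 0.10.2) were named by marker lists. Counts were added up within each library for classes of at least 20 nuclei. The two-sided quasi-likelihood test of edgeR 4.0.16 (R 4.3.3, filterByExpr, then TMM; 4 groups over all 16 libraries) gave log2 fold changes, adjusted by Benjamini-Hochberg over all genes of a class. Calls needed an adjusted p below 0.05 and a log2 change beyond 0.1 in size, thresholds the study applied to single nuclei. The filter keeps a gene with enough counts in as many libraries as the smallest group holds. A member can thus be tested only because it is high in 1 group. SE was the log2 change over the square root of F. Sums were used because nuclei of an animal are not replicates. Exact permutation tests of mean CPM were two-sided (70 arrangements of 4 against 4). Intervals and floors cover counting error only. Fits were tried on simulated microglial sums, with changes set only in genes above the members' vehicle levels. The members' low counts were not covered by that trial. Each animal gave 1 library, so p-values measure the spread between animals. Alternatives were DESeq2 1.42.0, limma-trend (limma 3.58.1), no filter, library totals, libraries of 1 genotype, resolution 1, doublets kept, all barcodes, and each library left out. All members, the 3 genes most like each, and the 2 called genes of largest change per pathway list in WT microglia were named, of which 1 is not reported here. Promoters came from RefSeq and positions from GENCODE M21.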

Additional observations from a re-analysis of the deposited data

Results flagged for a closer look

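In 57 groups of 4 libraries with at least 10 counts, the highest or lowest library was set against the other 3 by Dixon's criterion at the 95% level, which chance passes in about 1 of 20 groups, and 5 groups passed. In 4 of them it was WT DMXAA replicate 1 that stood above the other treated libraries for *Rsad2*. Over all nuclei it was at 4.70 CPM, with the others at 1.2 to 1.75. In EN it was at 1.65 CPM (others 0.264 to 0.455), in OPC at 26.9 CPM (others 3.27 to 5.79) and in oligodendrocytes at 6.81 CPM (others 0.298 to 1.27). The same library also held the highest summed level of the other antiviral effectors. All 4 groups hold that library, and the sum over all nuclei contains the class sums, so they are not independent. The rate of 1 in 20 holds for independent groups. *Cmpk2* in KO vehicle astrocytes of replicate 3 was at 2.98 CPM, with the others at 0.941 to 1.2.

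Nuclei left unnamed were not fitted as a class and entered the edgeR tests only through the sums over all nuclei. *Bst2* in them was at 4.45 CPM pooled over WT DMXAA libraries, above 0.636 CPM in WT vehicle libraries, from 17, 7, 10 and 6 UMIs against 0, 2, 2 and 1.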

How the results depend on the processing

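No called change turned direction. Among changes that were not called, these turned sign. *Rsad2* over all nuclei in KO (log2 0.50) was at -0.14 with all barcodes. *Cmpk2* in KO against WT vehicle was at 0.03 over all nuclei and 0.04 in EN, at -0.30 and -0.43 with library totals, -0.30 and -0.43 as ratios of CPM, and -0.060 to 0.10 and -0.094 to 0.14 without 1 library. In dentate granule neurons it was at -0.01, 0.029 with DESeq2 and -0.13 to 0.16 without 1 library. Without 1 library, *Bst2* in KO microglia (-0.62) spanned -1.12 to 0.39, *Cmpk2* in KO astrocytes (-0.31) -0.46 to 0.21, and *Cmpk2* in WT EN (0.17) and dentate granule neurons (0.19) -0.025 to 0.30 and -0.39 to 0.43. Among fits other than those leaving out a library, the number of members called changed as follows. Over all nuclei, in WT, 2 became 1 with library totals or limma-trend and 0 with WT libraries alone (*Bst2* adjusted p = 0.0519), and the interaction went from 0 to 1 with DESeq2. In microglia, in WT, 1 became 0 with limma-trend and with WT libraries alone (adjusted p = 0.0987). In astrocytes, in WT, 1 became 0 with WT libraries alone, where *Bst2* did not pass the filter, and 2 without the high-*Rsad2* nuclei, which were chosen by that gene's value, and for KO against WT vehicle 1 became 2 with DESeq2. In EN, in WT, 1 became 2 without the filter (*Rsad2*, adjusted p = 0.00908) and 0 with WT libraries alone (adjusted p = 0.0647), and in dentate granule neurons 1 became 2 (*Rsad2*, 0.0205) and 0 (*Bst2*, 0.283) in these fits. Without the filter, 0 became 1 in oligodendrocytes (*Bst2*, 4.70 ± 0.81, edgeR adjusted p = 0.0308), 2 in OPC, 2 in fibroblasts (*Rsad2* 2.56 ± 0.61, *Bst2* 1.77 ± 0.47) and, for KO against WT vehicle, 1 in fibroblasts. Single nuclei held 78.9% and 70% of the fibroblast *Rsad2* UMIs of treated replicates 2 and 3. The share of all genes called in each of these fits is not given, so the counts cannot be read as particular to the members.

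Leaving out 1 library gave 1 to 2 calls over all nuclei in WT, 0 to 1 for the interaction and for KO against WT vehicle there, 0 to 1 in microglia, 0 to 2 in astrocytes in WT and for KO against WT vehicle, 1 to 1 in EN, 0 to 1 in dentate granule neurons, and 0 to 1 in fibroblasts for both comparisons. *Bst2* in WT kept its call in 16 of 16 such fits over all nuclei (log2 2.75 to 3.39) and in EN (3.33 to 4.10), and in 14 of 16 in dentate granule neurons (3.56 to 4.84, lost without WT vehicle 2 or 3, adjusted p up to 0.0791), 12 of 16 in microglia (2.22 to 2.96, lost without WT DMXAA 1 or WT vehicle 1, 2 or 4, adjusted p up to 0.0832) and 13 of 16 in astrocytes (lost without WT vehicle 1, 3 or 4, adjusted p up to 0.0761). Without WT DMXAA replicate 3, astrocytes had 2 calls (*Rsad2* 2.17, adjusted p = 0.0435) and fibroblasts 1, beside 0.825% and 0.26% of genes called higher in those fits. For KO against WT vehicle, astrocytes had 0 without WT vehicle 2, and 2 without WT DMXAA 1, WT DMXAA 3 or WT vehicle 4. The cause was not tested. DESeq2 adjusted p-values of NA were left out. Few counts limit *Isg20* and glial *Rsad2*. No paired analysis was possible because replicate numbers were given in accession order and pair no animals.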

Other observations

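Border macrophages, found in 330 nuclei, had enough nuclei in 7 libraries, and 33.6% of them came from WT DMXAA replicate 3. In that library *Bst2* was at 54.2 CPM, in WT DMXAA replicate 1 at 230 CPM and in the single WT vehicle library at 63.6 CPM. Ependymal cells had enough nuclei in 2 WT vehicle and 2 WT DMXAA libraries, with mean *Bst2* of 10.5 CPM on 3 UMIs and 4.43 CPM on 1 UMI, lower with DMXAA (exact permutation p = 0.667, where 2 against 2 cannot go below 0.333).

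Single nuclei with many pathway UMIs occurred in vehicle and treated animals. Besides the astrocyte nucleus of WT vehicle replicate 1, with 15 *Rsad2*, 2 *Cmpk2* and 0 *Bst2* UMIs among 4505, an astrocyte nucleus of WT vehicle replicate 2 held 4 *Rsad2*, 3 *Bst2* and 45 pathway UMIs over 22 genes among 2247. A fibroblast nucleus of WT DMXAA replicate 2 held 15 *Rsad2*, 4 *Cmpk2*, 3 *Bst2* and 198 pathway UMIs over 42 genes, where the median fibroblast nucleus of that library held 8. These nuclei were looked up after their values were seen.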
